A study of Mus musculus with 72 samples.

Results

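The comparison set line 1A4, a control mouse embryonic stem cell line derived from a blastocyst, against HM1, the control line from which 2 of the knockout lines of the study were edited. The members were chosen by their labels: the wild-type samples of these lines, which are 9 of the 18 biological samples (36 of the 72 sequenced files). The study asked how cells without functional Nup133, a subunit of the Y-complex of the nuclear pore, differ from controls in the pluripotent state and during a neuroectodermal differentiation, and it used 2 genetic backgrounds for this. HM1 is labelled Nup133+/+, XY, with 40 chromosomes, and was sampled at days 0, 2 and 3 in 2 biological replicates (6 samples). 1A4 is labelled Nup133+/+, Sox1gfp/+, XY, also with 40 chromosomes, and was sampled once at each of the same days (3 samples). At day 0 the cells came from serum and LIF medium with mitomycin-treated DR4 mouse embryonic fibroblast feeders, which were removed before collection. The cells then stayed in N2B27 medium without feeders to day 2, and received 1 µM all-trans retinoic acid for the last 24 h before day 3. Background, derivation, the Sox1gfp allele, culture history and sampling all differ with the line, so they cannot be told apart. 1A4 had no replicate at any day, and nothing in the labels says whether the HM1 replicates came from separate thaws, so every p-value rests on the spread between these samples, and the lone 1A4 sample of a day was assumed to vary like the HM1 samples.

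Mouse embryonic stem cells in serum and LIF express a core set of pluripotency factors together with naive-state factors that are switched off once LIF is withdrawn. In N2B27 medium they pass through a formative stage toward neuroectoderm, where Sox1 is among the earliest neural genes, and retinoic acid then activates Hox genes and other direct targets of its receptors. Lines of different strains are known to differ at many loci, through inherited alleles as well as through changes gained in culture, and HM1 is known as an Hprt-deficient line.

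Libraries held between 25.8 and 48.3 M counts assigned to genes (M, 1e6). The markers of embryonic stem cells (8 of 8) were above 0 in every sample. Their summed level at day 0 was 4767 CPM (counts per 1e6 counts, scaled by TMM factors) in 1A4 against 4770 and 5015 in the HM1 replicates, and at day 3 it was 713 against 645 and 764. The sum of the 6 neural markers was 60.7 in 1A4 against 165 and 115 in HM1 at day 0 and 319 against 358 and 302 at day 3. The 23 feeder fibroblast markers were all above 0 in every sample. Their sum at day 0 was 1827 CPM in 1A4 against 2748 and 2489 in HM1, at day 2 it was 1028 against 925 and 1194, and at day 3 it was 1171 against 1054 and 1262. In such bulk samples fewer cells of a type and less RNA per cell cannot be told apart. The first principal component, with 58.7% of the variance, followed the days, and the third, with 7.99%, set the 3 samples of 1A4 (-62.9 to -29.2) apart from the 6 of HM1 (10.1 to 32.5).

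Which genes differed between the lines at every day, and which differed by another amount at 1 day, was asked for 18941 genes. The 3 days of 1A4 stood in for replicates of the line, so the spread between separate 1A4 cultures was not measured. With day as a factor, 1142 genes (6.03%) differed between the lines at an adjusted p under 0.05. They were 575 genes that were higher in 1A4 (3.04%) and 567 that were lower (2.99%), and 250 of them differed by more than 2-fold and 50 by more than 8-fold. In 4191 genes (22.1%) the 1A4 value lay outside both HM1 replicates on the same side at all 3 days. A difference was called stable where the line test was called, the joint test of line and day was not, and 1A4 lay outside HM1 on 1 side at all 3 days. By this rule 523 genes were stably higher in 1A4 (2.76%) and 524 stably lower (2.77%), with a median absolute log2 difference of 0.49. Of these, 107 were higher and 113 lower by more than 2-fold. A joint test without a call does not show that a difference had the same size at each day.

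The number of calls depended on the samples kept. With DESeq2 1825 genes differed between the lines. Without the 1A4 sample of day 2 there were 338, and without 1 of the HM1 samples there were 604 (day 0, replicate 2), 575 (day 2, replicate 1), 531 (day 2, replicate 2), 703 (day 3, replicate 1) or 613 (day 3, replicate 2). Without day 2 there were 126, without day 3 736, and with a single HM1 replicate per day 83 (replicate 1 left out) or 63 (replicate 2 left out). Against the requirement of a 1.5-fold difference, 60 genes were called.

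Hprt, the purine salvage enzyme hypoxanthine-guanine phosphoribosyltransferase, was nearly absent from HM1. Hprt stood at 3.43 and 2.46 CPM in HM1 at day 0, at 0.648 and 0.836 at day 2 and at 0.525 and 0.514 at day 3. In 1A4 it stood at 219.8, 154 and 81.1 CPM. All 3 samples of 1A4 were far above all 6 of HM1, with a log2 difference of 6.92 ± 0.23 (SE, adjusted p = 1.6e-06). The difference was smaller at day 0 (6.23) than at day 2 (7.69) and day 3 (7.28), and the day 0 contrast was called (adjusted p = 0.0033). The RefSeq window from 250 bases before to 50 after the Hprt start (GRCm38.p6, chrX:52987828-52988127, plus strand) is shown because Hprt separates the lines in every sample. It is a promoter rich in CG dinucleotides (22, against a median of 7 per window) with 3 GC boxes, in capitals (GGGCGG, or CCGCCC on the other strand, which 35.7% of 32851 such windows hold).
Hprt: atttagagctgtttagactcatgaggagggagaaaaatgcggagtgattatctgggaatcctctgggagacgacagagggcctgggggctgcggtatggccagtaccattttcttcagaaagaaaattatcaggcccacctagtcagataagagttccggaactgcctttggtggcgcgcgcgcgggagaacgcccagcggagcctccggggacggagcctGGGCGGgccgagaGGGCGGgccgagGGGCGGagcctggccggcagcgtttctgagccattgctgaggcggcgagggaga
The window belongs to the reference genome, and whether HM1 carries it was not measured here. Of the 20 genes of purine synthesis and salvage, 4 were higher in 1A4, Hprt among them, and none lower. Over all genes 3.04% were higher and 2.99% lower. The higher purine genes other than Hprt were Adk, adenosine kinase (log2 0.42 ± 0.08), Pnp, purine nucleoside phosphorylase (0.38 ± 0.07), and Prps2, a phosphoribosyl pyrophosphate synthetase (0.27 ± 0.06), with adjusted p = 0.014, 0.014 and 0.028. The list's median was 0.04, against -0.01 over all genes.

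**Figure D1:**
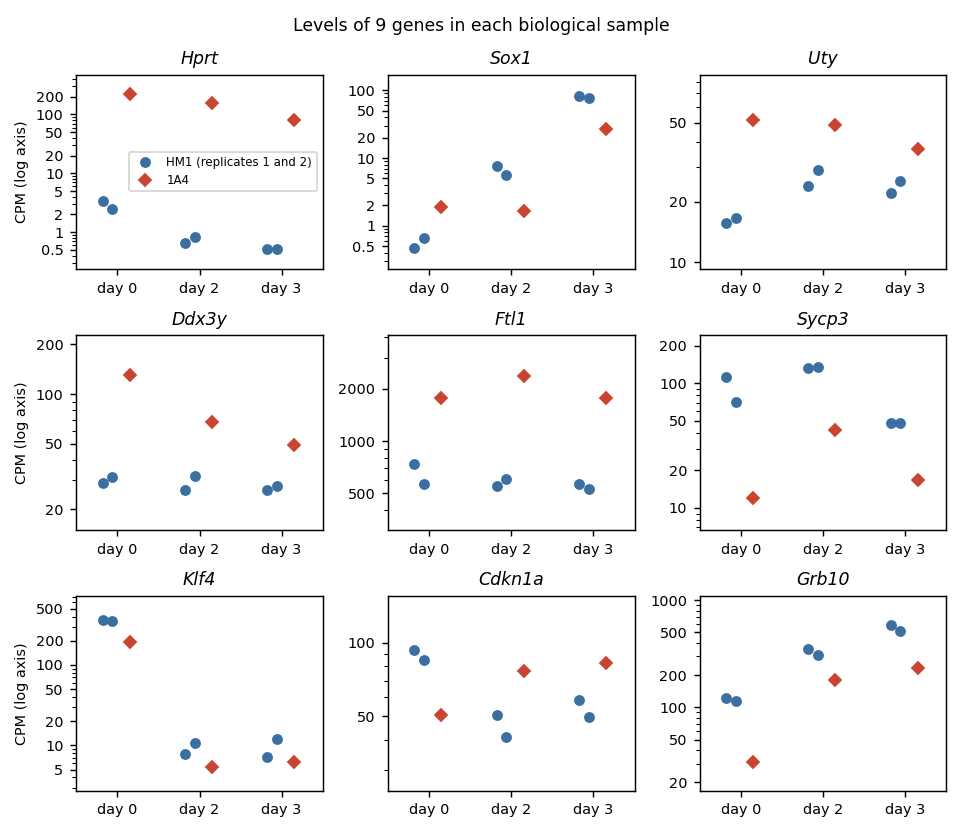
Normalised level (CPM, log axis) of 9 genes at days 0, 2 and 3; blue circles are the 2 HM1 replicates of a day and the red diamond is the 1A4 sample. Hprt, Ftl1 and Ddx3y lie above HM1 at all days and Sycp3, Klf4 and Grb10 below it, while Sox1 and Cdkn1a change sides between day 0 and day 2.

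The other genes that check the labels were measured next. Nup133 is intact in both lines by the labels, and it stood at 331, 274 and 222 CPM in 1A4 at days 0, 2 and 3 against 240.5 and 249, 235 and 242, and 192 and 184 in HM1. 1A4 was thus above both replicates at each day, by 0.29 ± 0.06 on the log2 scale (adjusted p = 0.015). The call was lost in 4 of 24 alternatives: against a 1.5-fold requirement, without either HM1 replicate series and without day 2. Nup133 was the only called member among 29 nucleoporins tested (median 0.04). Sox1, a neural transcription factor with a GFP reporter allele in 1A4, stood at 1.92, 1.63 and 26.8 CPM in 1A4. In HM1 it was 0.475 and 0.657 at day 0, 7.66 and 5.62 at day 2, and 82.8 and 77.7 at day 3. Sox1 was therefore above HM1 at day 0 (log2 1.75 ± 0.34) and below it at day 2 (-2.02 ± 0.21) and day 3 (-1.58 ± 0.15), with adjusted p = 0.0055, 4.4e-04 and 1.7e-04. Its day 0 difference exceeded the mean of the other days by 3.55 ± 0.38 (adjusted p = 2.7e-04). Reads of the Sox1 overlapping transcript Sox1ot on the same strand could not be told apart from it.

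Both lines are labelled XY, and the Y-linked genes were read in all 9 samples. Ddx3y, a Y-linked RNA helicase, stood at 131, 67.6 and 48.9 CPM in 1A4, above the 26.0 to 31.7 CPM of the 6 HM1 samples. Uty, a histone demethylase relative, stood at 51.2, 48.8 and 36.6 CPM against 15.7 to 29.0. Eif2s3y, a translation initiation factor subunit, stood at 149.9, 104 and 65.1 CPM, above both HM1 replicates of each day. The log2 differences over the days were 1.43 ± 0.19, 1.07 ± 0.16 and 0.53 ± 0.08 (adjusted p = 0.0064, 0.0088 and 0.0073). All 3 genes were higher by more at day 0 than at the other days, by 1.06, 0.91 and 0.35. Kdm5d, the fourth Y-linked gene fixed by name, lay at 2.37, 2.48 and 3.21 CPM within the 1.64 to 4.38 of HM1. Of the 6 listed Y-linked genes tested, 3 were called higher and none lower, while of all 10 tested genes of chromosome Y 4 were higher (Gm29650 in addition) and 2 lower (Gm47283 and Gm21742); these 3 were named after their values were seen. The calls of Ddx3y, Uty and Eif2s3y were lost in 4, 4 and 5 of 24 alternatives, among them those without either HM1 replicate series and without day 2. Xist, the RNA that coats an inactive X, was at 7.59, 13.6 and 3.74 CPM in 1A4 against 18.8 and 15.1, 2.57 and 4.01, and 1.77 and 1.54 in HM1. Xist was thus below HM1 at day 0 (log2 -1.16) and above it at day 2 (2.05) and day 3 (1.17), and overlapping genes including Tsix on the opposite strand make its level uncertain.

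The 12 named genes that were stably higher in 1A4 lay by at least 1.58 on the log2 scale above HM1. Ubd, an MHC-linked ubiquitin-like modifier, had no count in any of the 6 HM1 samples and 3.43, 0.372 and 0.561 CPM in 1A4 (123 counts), which is at least 18.2-fold higher against a floor of 3 counts per library. Klk1b22, a kallikrein with close paralogs, had 2 counts in HM1 and stood at 1.10, 0.972 and 1.23 CPM in 1A4 (at least 13.8-fold higher). H2-T3, a non-classical MHC class I gene, stood at 1.75, 1.28 and 0.267 CPM against 0.0243 to 0.239 (log2 3.15 ± 0.47, adjusted p = 0.0047). Ubd and Klk1b22 were at or near 0 throughout HM1 and present in 1A4 at every day. For H2-T3 the lowest 1A4 value (0.267 CPM) was close to the highest HM1 value (0.239). Ftl1, the ferritin light chain that stores iron with its heavy chain, stood at 1782, 2363 and 1784 CPM in 1A4 against 529.7 to 739.5 in the 6 HM1 samples (log2 1.73 ± 0.11, adjusted p = 2.8e-05). Cubn, the endocytic receptor cubilin of the visceral endoderm, stood at 2.86, 2.44 and 3.02 CPM against 0.442 to 1.31 (1.58 ± 0.26, adjusted p = 0.0073). No 1A4 sample of these 2 genes overlapped an HM1 sample. The other members were Ush1c (an Usher syndrome scaffold protein, 2.10), Fam83e (1.91), Mucl3 (1.84), Pof1b (1.70), Clca3b (1.67), Abcc8 (the sulfonylurea receptor, 1.66) and the 5.8S ribosomal RNA gene n-R5-8s1 (1.62), whose many copies make its count uncertain. Of the 12, 5 lie on chromosome 7 between positions 44112673 and 46238503 (GRCm38) and 3 on chromosome 17 between 35635752 and 37196095.

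The 12 named genes that were stably lower lay by at least 1.59 below HM1 on the log2 scale. Ccr1l1, a chemokine receptor relative, had 794 counts in HM1 (1.79 to 4.98 CPM) and 1 in 1A4, which is at least 39.8-fold lower. Nlrp4a, a member of an oocyte-expressed NLR family with close paralogs, stood at 0.939, 0.227 and 0.134 CPM against 5.41 and 5.91, 1.39 and 2.46, and 0.912 and 1.37 (log2 -2.83 ± 0.29). Sycp3, a component of the synaptonemal complex of meiosis, stood at 12.0, 42.1 and 16.9 CPM against 48.0 to 135 (-1.97 ± 0.29, adjusted p = 0.014). The 1A4 samples of these genes lay below both HM1 replicates of every day, as the rule for a stable difference requires. Il1rl1, the interleukin 33 receptor, was high in HM1 mainly at day 0 (70.8 and 30.1 CPM against 12.8 in 1A4), and so was Inhba, an activin subunit (14.0 and 8.62 against 1.84). The neural transcription factors Pou3f2 (6.39 and 3.87 CPM in HM1 at day 3 against 1.26) and Neurod4 (5.78 and 3.97 against 1.31) were detected mainly at day 3. The remaining members were Zbp1 (a sensor of Z-form nucleic acids, -1.80), Aurkc (a meiotic Aurora kinase, -1.74), Napsa (an aspartic protease, -1.70), Myom2 (a sarcomere protein, -1.60) and Fam189a1 (-1.59).

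Of these 24 genes, 21 kept their call in every tool, scaling, filter and transcript choice other than the 1.5-fold requirement. The exceptions were Ubd with DESeq2 (adjusted p = 0.091), Inhba with all transcripts added up (0.051) and Il1rl1 with limma-voom (0.096). When single samples, series or days were left out, 6 of the 24 kept their call throughout: Ubd, Klk1b22, Ftl1, Abcc8, Ccr1l1 and Nlrp4a. Annotated genes overlap 13 of the 24 (among them Sycp3, Inhba, Napsa, Ush1c, Cubn and Ftl1), and since the use of strand in counting is not given, their levels are uncertain.

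**Figure D2:**
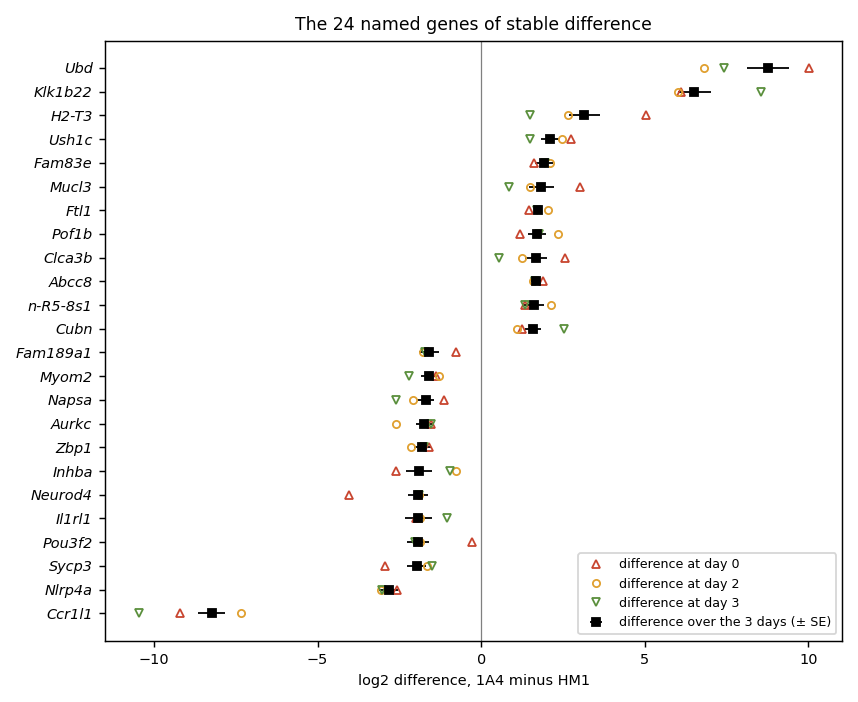
Log2 difference between 1A4 and HM1 for the 24 named genes of stable difference; the square is the fit over the 3 days with its SE and the open symbols are the fits of single days. Every symbol lies on the side of its square, which follows from the rule for a stable difference. The fitted values of Ubd, Klk1b22 and Ccr1l1 rest on lines with almost no counts and are no measure of size.

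Of 20 naive-state pluripotency genes, 3 were lower in 1A4 and none higher (median -0.09), where 2.99% of all genes were lower and 3.04% higher, and all 3 were lower at each day. Klf4 stood at 195, 5.4 and 6.17 CPM in 1A4 against 362 and 348, 7.94 and 10.7, and 7.11 and 12.0 in HM1 (log2 -0.77 ± 0.15, adjusted p = 0.023). Prdm14, a regulator of the naive and germ cell states, fell by 0.77 ± 0.14 and Dppa3 by 0.44 ± 0.09 (adjusted p = 0.013 and 0.018). Of the 12 general pluripotency genes 2 were higher and 1 lower. Pou5f1 (Oct4) was higher, with 1153, 924 and 206 CPM in 1A4 against 1054 and 1012, 806 and 763, and 159.7 and 165 in HM1 (0.25 ± 0.05, adjusted p = 0.025). Lin28a was higher by 0.25 ± 0.06 and Sox2 lower by -0.34 ± 0.05 (adjusted p = 0.047 and 0.0068). Lin28a lost its call in 14 of 24 alternatives, Pou5f1 in 12, Klf4 in 8 and Sox2 in 5. Of 61 called genes named from the lists, regions and closing observations, 52 kept their call in every other tool, scaling, filter and transcript choice, and 10 in every fit with samples, series or days left out. These differences were the same in direction at all days but small beside the change of Klf4 and Pou5f1 between day 0 and day 3 in both lines. None of the 12 primed-state genes was called (median 0.04), nor any of 18 genes of FGF and ERK signalling (median 0.14) or 12 genes of the 2-cell state (median -0.03).

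Among differentiation genes, 2 of 20 neural genes were called, both lower in 1A4 (median -0.53), a share not far from the 6.03% called of all genes. Sox21, a neural progenitor factor, stood at 14.3, 0.931 and 5.16 CPM against 37.2 and 33.2, 2.48 and 2.08, and 12.3 and 10.001 in HM1 (log2 -1.23 ± 0.12, adjusted p = 3.0e-04). Irx5 was lower by -0.85 ± 0.20 (adjusted p = 0.032). The retinoic acid list had 3 members higher and 2 lower of 20 (median -0.23, with 3.04% and 2.99% over all genes). Rarg, a retinoic acid receptor, stood at 165, 184 and 109.9 CPM against 96.3 and 92.2, 121 and 141, and 81.3 and 90.1 (0.56 ± 0.08, adjusted p = 0.0046), so its difference was present before retinoic acid was given. Stra8, a retinoic acid target of germ cells, reached 102 CPM in 1A4 at day 3 against 221 and 254 (-1.18 ± 0.20, adjusted p = 0.013). Hoxb1, a direct target in hindbrain, reached 54.2 CPM at day 3 against 12.7 and 16.0 (1.69 ± 0.26, adjusted p = 0.0064). The Hoxb1 value rests on that single 1A4 sample, without which it was -0.09, and Cdx1 (1.18) fell to 0.41 without it. Meis1, also retinoid-responsive, was lower by -0.47 ± 0.12 (adjusted p = 0.043). Of 28 Hox genes Hoxb1 alone was called (median 0.37). T (Brachyury), a mesendoderm factor, stood at 21.9, 5.29 and 3.53 CPM against 43.1 and 57.4, 14.9 and 11.7, and 3.95 and 4.38 (-0.98 ± 0.20, adjusted p = 0.023), and no other of 16 mesendoderm genes was called (median -0.30). Of 22 genes of Wnt signalling, Cdx1 was higher and T and Tcf7 (-0.40 ± 0.09) lower (median -0.29). Cubn was the only primitive endoderm gene called of 16 (median -0.05).

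Interferon-responsive and MHC class I genes gave more lower than higher calls in 1A4. Of 32 interferon-responsive genes tested, 8 were lower and 1 higher, where 2.99% and 3.04% of all genes were, and the list's median was -0.76 against -0.01 over all genes. Ifitm1 stood at 145, 38.7 and 22.3 CPM in 1A4 against 259.6 and 239, 59.4 and 66.6, and 28.9 and 29.2 in HM1 (log2 -0.63 ± 0.08, adjusted p = 0.0018). Its neighbour Ifitm3, also a membrane protein that restricts viruses, went the other way, with 115, 45.6 and 42.4 CPM against 81.7 and 85.9, 24.9 and 25.2, and 24.0 and 21.9 (0.74 ± 0.08, adjusted p = 7.9e-04). The other lower members were Zbp1, Lgals3bp, Gbp2, Trim30a, Ifi35, Ifih1 and Parp14. All 9 called members lay outside HM1 at all 3 days, as did 1111 of the 1142 called genes in all. Of 17 MHC class I and antigen-processing genes 4 were lower and none higher (median -0.28), beside 2.99% lower over all genes: the class I genes H2-Q6 (-0.62) and H2-Q7 (-0.58), which are close copies, the immunoproteasome subunit Psmb8 (-1.30 ± 0.26) and the peptide-loading factor Tapbp (-0.72 ± 0.14). The list does not hold H2-T3, the non-classical class I gene that was stably higher in 1A4 (3.15). Psmb8 stood at 5.22, 2.13 and 2.56 CPM against 22.1 and 18.9, 4.42 and 6.6, and 3.18 and 4.08. The feeder fibroblast list gave calls in the same direction, with 4 of 23 members lower and none higher (median -0.31): Col6a3, Lox, Col5a2 and Col1a2, at -1.13 to -0.54. The summed fibroblast level given above differed between the lines at day 0 and overlapped at days 2 and 3, and its part in these differences was not tested.

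Imprinted genes, expressed from a single parental allele, gave 9 calls among 39 tested: 7 higher and 2 lower in 1A4 (median 0.14), beside 3.04% and 2.99% over all genes. Mest, from the paternal allele, stood at 248, 281 and 894 CPM against 153 and 161, 211 and 232, and 474 and 507 (log2 0.63 ± 0.08, adjusted p = 0.0023). Impact was higher by 0.57 ± 0.07 and H13, a signal peptide peptidase, lower by -0.80 ± 0.07 (adjusted p = 0.0020 and 1.9e-04). Grb10, a growth factor receptor adaptor, stood at 31.0, 180.1 and 235 CPM in 1A4 against 124 and 115, 349.6 and 307, and 587 and 518 (-1.31 ± 0.17, adjusted p = 0.0058); it was chosen for its size after its value was seen. The other higher members were Zdbf2, Mcts2, Nnat, Mirg and Snrpn, and 8 of the 9 lay outside HM1 at all days, beside 1111 of all 1142 called genes. Mcts2 lies inside H13, so their reads may not be separate. Of 19 germline genes, Sycp3 and Tex19.1 (-0.98 ± 0.12) were lower and Taf7l (0.64) higher (median -0.16). Of 7 mitochondrially encoded genes 4 were lower, led by mt-Cytb with 3533, 2280 and 2209 CPM against 6022 and 5251, 3248 and 3319, and 2714 and 2738 (-0.50 ± 0.08, adjusted p = 0.0051). Of 10 genes known to vary between strains, Alad was higher (0.69) and Glo1 lower (-0.39), with a median of -0.23, and none of 15 protocadherin beta genes was called (median -0.37). The X-inactivation list had no call among 4 genes (median 0.35) and the Y-linked list a median of 0.80.

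The differences were not spread evenly over the genome. On chromosome 11, 200 of 1552 genes were lower in 1A4 and 10 higher, which is 13.5% against the 6.03% of all genes, and the median difference was -0.16. By day, from 0 to 3, the median was -0.17, -0.19 and -0.14. Of the lower genes named above, Tcf7, Meis1, Grb10, Tex19.1, Lgals3bp and Ifi35 lie on this chromosome. The list counts take no account of that. In windows of 5 Mb with at least 15 tested genes, all 23 windows of chromosome 11 had a median below 0, from -0.26 to -0.09. Of the 379 windows elsewhere, 32 were as low as the highest of these. Chromosome 8 was shifted the other way, with 67 genes higher and 8 lower of 960 and a median of 0.07. Relative to all autosomes and to the HM1 mean of the day, chromosome 11 in 1A4 lay at -0.20 to -0.14 over the days and the other autosomes at -0.03 to 0.12, while each HM1 replicate stayed within 0.01 of their mean. The knockout lines 14 and 19, which were edited from HM1, also lay below HM1 on chromosome 11, at -0.33 to -0.25 and -0.36 to -0.19. The blastocyst-derived knockout line 319 lay at -0.35 to -0.24. Thus all 4 other lines were below HM1 there, those made from it included. The labels count 40 chromosomes for 1A4 and HM1, and no karyotype was measured here.

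Smaller regions also held many calls. The bounds of the following were set after their values were seen, and they carry no test. Between 35 and 70 Mb of chromosome 7, 49 of 291 genes were higher and 17 lower (22.7% called). Over all genes 3.04% were higher and 2.99% lower (6.03% called). Between 65 and 75 Mb of chromosome 13, 24 of 87 genes were higher and none lower, with a median of 0.27. This stretch holds a cluster of zinc finger genes, many of which are close copies. Of 28 tested Zfp genes 7 were called higher, a share no larger than the 27.6% of the whole stretch. Zfp595 stood at 8.94, 5.05 and 3.10 CPM against 3.4 and 3.31, 2.36 and 3.18, and 1.96 and 2.36 in HM1 (log2 0.96 ± 0.18, adjusted p = 0.014). Tert, the telomerase reverse transcriptase, lies in it too and stood at 19.06, 25.5 and 12.95 CPM against 16.5 and 16.7, 18.6 and 16.5, and 9.12 and 8.56 (0.43 ± 0.09, adjusted p = 0.022).

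**Figure D3:**
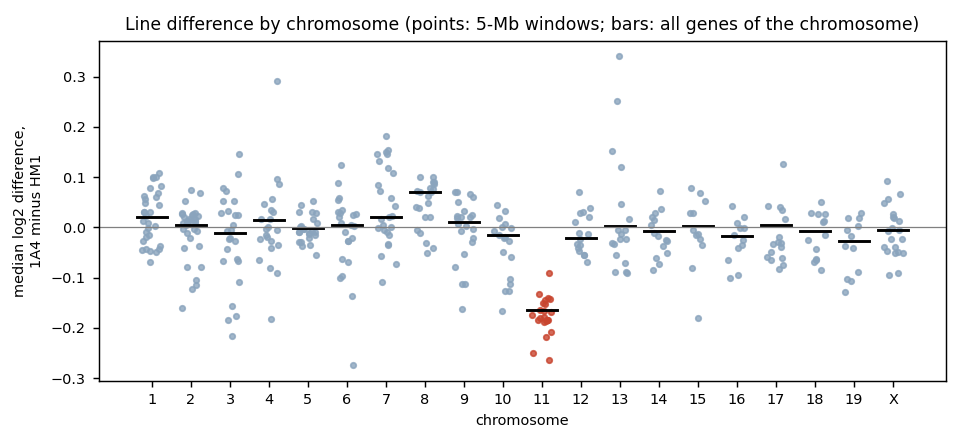
Median log2 difference between 1A4 and HM1 by chromosome; each point is a window of 5 Mb with at least 15 tested genes and each black bar is the median over all genes of the chromosome. All 23 windows of chromosome 11, in red, lie between -0.26 and -0.09, while the bars of the other autosomes and X lie between -0.03 and 0.07; chromosome Y and the mitochondrial genome are not drawn.

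The knockout lines allow the same backgrounds to be set side by side in other samples: line 319, labelled Nup133merm/merm, Sox1gfp/+ and XX with extra chromosomes 8 and 12, against the mean of lines 14 and 19. These lines also differ in karyotype and in how Nup133 was lost, so chromosomes 8, 12, X and Y were left out and the result is a description without a test. Of 922 stable genes, 600 (65.1%) had the same sign there, against 9290 of 16654 genes in all (55.8%). The sign was the same at each of the 3 days for 94 of 197 stable genes of more than 2-fold (47.7%), against 204 of 707 among all genes of that size (28.9%). By direction, it was the same for 57 of 98 higher genes (58.2%) and 37 of 99 lower genes (37.4%). The named genes were taken from all chromosomes, those left out above included, with Pof1b on X and Myom2 on chromosome 8. Of the 12 named higher genes, 11 were higher in 319 at all days, the exception being n-R5-8s1. Of the 12 named lower genes 4 were lower at all days (Sycp3, Il1rl1, Myom2 and Inhba). Ccr1l1, almost without counts in 1A4, was higher in 319 than in lines 14 and 19 at each day, by 1.34, 2.09 and 1.56 on the log2 scale. Hprt, which lies on the X chromosome, was higher in 319 by 7.44, 8.00 and 6.97.

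Many differences varied with the day. By the joint test of line and day 1586 genes varied, and 67 of these were also called for the line difference. A day-specific difference is the difference at a day minus the mean of the differences at the other days. It can come from the other days as well as from the day itself. At day 0, 1265 genes were lower in 1A4 by this measure (6.68%) and 649 higher (3.43%). At day 2, 26 were lower (0.137%) and 62 higher (0.327%), and at day 3, 255 were lower (1.35%) and 697 higher (3.68%). Taken day by day, the lines differed at day 0 in 1952 lower (10.3%) and 1462 higher genes (7.72%), at day 2 in 443 lower (2.34%) and 568 higher genes (3.00%), and at day 3 in 423 lower (2.23%) and 823 higher genes (4.35%). The 3 contrasts sum to 0 for each gene, so a gene low at day 0 tends to count as high at another day. The counts also moved when samples were left out. The 1914 genes of day 0 fell to 1187 without HM1 replicate 1 of day 3. The 952 of day 3 fell to 173 and 329 without HM1 replicates 1 and 2 of day 3 and to 543 without replicate 1 of day 2. The 88 of day 2 became 25 and 40 without HM1 replicates 1 and 2 of day 2, 186 without replicate 2 of day 0 and 55 without replicate 1 of day 3.

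At day 0 the named lower genes were Nr4a3, an immediate-early nuclear receptor (0.122 CPM in 1A4 against 4.2 and 1.70), Il11, an interleukin 6 family cytokine (0.367 against 2.88 and 1.36), Sdk1, an adhesion protein (0.122 against 0.739 and 1.29), and Rtp4, an interferon-responsive gene (0.326 against 2.01 and 2.46). All 4 had few counts, and 1A4 lay below both replicates. The named higher genes were Chac1, a glutathione-degrading enzyme (26.2 CPM against 4.78 and 2.70), Sox1, Itgam, an integrin of myeloid cells (1.88 against 0.211 and 0.0973), and Fut1, a fucosyltransferase (1.06 against 0.185 and 0.122). Chac1 then stood at 43.5 CPM between the 36.0 and 54.1 of HM1 at day 2 and at 2.70 below the 9.51 and 10.5 at day 3. Some single genes of larger count are given too. They were picked after their values were seen and stand for no gene group. Tpm1, a tropomyosin, stood at 150.0 CPM in 1A4 against 323 and 358 in HM1 at day 0, 355 against 301 and 304 at day 2, and 374 against 279 and 314 at day 3 (day 0 contrast -1.46 ± 0.11, adjusted p = 2.3e-05). The contrasts of Csrp1, Cnn1, Tagln and Actc1 were -1.58, -2.09, -1.93 and -2.46. Trib3, a pseudokinase, stood at 42.9 CPM against 13.1 and 15 at day 0, 67.8 against 61.6 and 72.4 at day 2, and 8.41 against 10.8 and 12.7 at day 3 (1.84 ± 0.16, adjusted p = 1.1e-04). The folate enzyme Mthfd2 (1.28), the arginine transporter Slc7a1 (1.66), the glycine transporter Slc6a9 (2.49) and the transcription factor Atf4 (0.77) were also higher in this contrast. Tagln is itself in the feeder fibroblast list, whose summed level was lower in 1A4 at day 0 (1827 against 2748 and 2489 CPM). Of its 23 members, 6 were called lower in the day 0 contrast, beside 6.68% of all genes. The part of feeder cells in that contrast was not tested.

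At day 2 the named lower genes were Sox17, an endoderm factor (0.476 CPM against 1.18 and 1.24), Sox1, Wnt8a, a Wnt ligand (2.171 against 11.5 and 7.81), and Vsir, an immune checkpoint protein (1.47 against 2.80 and 1.89). The named higher genes were Xist, Aqp3, a water and glycerol channel (7.71 against 2.85 and 2.75), Dusp8, a MAP kinase phosphatase (11.8 against 5.62 and 4.90), and Klhdc7a (5.4 against 3.05 and 2.77). Aqp3 kept its call in every tool, scaling, filter and transcript choice tried apart from the 1.5-fold requirement, and the other 7 lost it in at least 1. Of the named day 0 genes Rtp4 lost its call in such a choice. At day 3 the named lower genes were Nhlh1, a neuronal transcription factor (0.214 CPM against 1.71 and 1.58), Klb, the co-receptor beta-klotho (5.18 against 9.98 and 8.60), Cd37, a tetraspanin (1.71 against 2.79 and 2.71), and Arhgef38 (0.748 against 1.22 and 1.51). The named higher genes were Slc24a5, an ion exchanger of pigment cells (1.04 against 0.111 and 0.103), Krt15, a keratin (5.10 against 1.52 and 1.16), Wnt8a (7.21 against 2.32 and 3.22) and Foxc1, a mesoderm factor (9.62 against 3.54 and 3.84). Sox17 stood at 10.2 CPM against 2.32 and 3.12 at that day. In each of these genes 1A4 lay outside both replicates of the day, as it did for 77.3% of all genes at day 2 and 79.0% at day 3. The day 3 differences of Klb, Cd37 and Arhgef38 were smaller than their contrasts, which also hold the differences at the other days. Of the 8 of day 3, Arhgef38, Krt15, Nhlh1 and Slc24a5 lost their call in at least 1 tool, scaling, filter or transcript choice and also with samples left out.

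**Figure D4:**
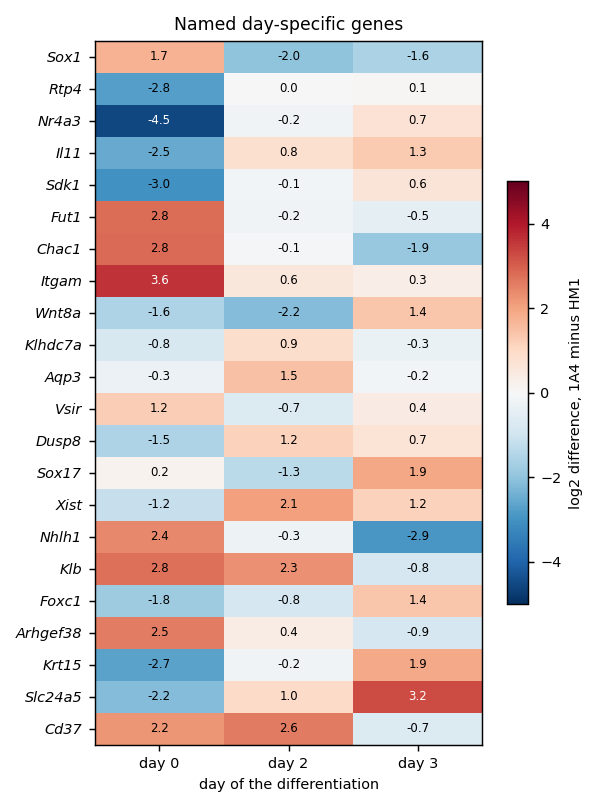
Fitted log2 difference between 1A4 and HM1 at days 0, 2 and 3 for the 22 named day-specific genes (red, higher in 1A4; blue, lower), with the value printed in each cell. Most change sign between days, as Sox1 (1.75, -2.02 and -1.58) and Wnt8a (-1.56, -2.15 and 1.39).

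Most p53 target genes lay below HM1 at day 0 and above it at day 2. p53 is a transcription factor stabilised by DNA damage and other stress, which activates genes of cell cycle arrest, apoptosis and its own degradation through Mdm2. Over the days a single member of 18, the apoptosis factor Pmaip1 (Noxa), was called (1.04 ± 0.14, adjusted p = 0.0047), and the median was 0.19. In the day 0 contrast 15 of 18 were lower in 1A4 and none higher, beside 6.68% and 3.43% of all genes, and the called values ran from -1.60 to -0.31. At day 0, 16 of the 18 lay below both HM1 replicates, against 43.3% of all genes. At day 2, 17 lay above both, against 38.6% of all genes, and at day 3 12 did, against 40.1%. In the day 2 contrast 5 were higher and in the day 3 contrast 3, with none lower in either. Over all genes 0.327% were higher in the day 2 contrast and 3.68% in the day 3 contrast. The summed feeder fibroblast markers were lower in 1A4 at day 0 (1827 against 2748 and 2489 CPM) and overlapped HM1 at days 2 and 3, and their part in this course was not tested.

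Cdkn1a, the cell cycle inhibitor p21, stood at 50.5 CPM in 1A4 at day 0 against 92.9 and 85.0 in HM1, at 76.6 against 50.6 and 41.3 at day 2, and at 82.3 against 58.1 and 49.8 at day 3. It was thus below both replicates at day 0 and above both later, and its day 0 contrast was -1.49 ± 0.17 (adjusted p = 0.0012). Mdm2, the ubiquitin ligase of p53, stood at 154 CPM against 224 and 205 at day 0, 186 against 115 and 109 at day 2, and 159 against 127 and 112 at day 3 (-1.05 ± 0.11, adjusted p = 1.6e-04). Bbc3 (Puma), an apoptosis factor, stood at 18.9 against 37.8 and 31.6, 47.8 against 43.9 and 40.5, and 69.2 against 40.0 and 38.6 (-1.37 ± 0.14, adjusted p = 1.4e-04). The 3 genes therefore followed 1 order, low in 1A4 at day 0 and high afterwards. Plk2 (-1.60), Btg2 (-1.29) and Phlda3 (-1.16) did so as well, while Aen stayed below HM1 at day 2 (110.0 CPM against 139 and 130.03). Trp53 itself, which encodes p53 and lies on chromosome 11, stood at 443 CPM against 630.1 and 638 at day 0, 208 against 238 and 223 at day 2, and 191 against 171 and 175 at day 3. Its day 0 contrast was -0.51 ± 0.08 (adjusted p = 0.0028). These members of the list, apart from Pmaip1 and Aen, were named after their values were seen, and all kept their day 0 call in every tool, scaling, filter and transcript choice except, for Phlda3, Plk2 and Trp53, the 1.5-fold requirement.

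Cdkn1a is shown with the RefSeq window at its first start (GRCm38.p6, chr17:29090729-29091028, plus strand), since it is a textbook p53 target. The capitals mark a match to the p53 full-site consensus, 2 decamer half-sites up to 13 bases apart, which begins 73 bases before the start.
Cdkn1a: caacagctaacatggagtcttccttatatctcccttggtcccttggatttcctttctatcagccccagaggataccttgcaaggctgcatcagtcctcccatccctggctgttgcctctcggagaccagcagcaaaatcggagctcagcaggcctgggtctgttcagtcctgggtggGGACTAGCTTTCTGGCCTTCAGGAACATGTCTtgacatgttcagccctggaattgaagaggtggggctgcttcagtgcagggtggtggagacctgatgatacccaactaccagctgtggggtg
The match is found in 24 of 32851 windows (0.0731%), read on this palindromic pattern, and in 1 of the 18 windows of the 13 list genes that had one. It is a description of the reference sequence and not a measured binding site. The window at the second start of Cdkn1a held none.

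**Figure D5:**
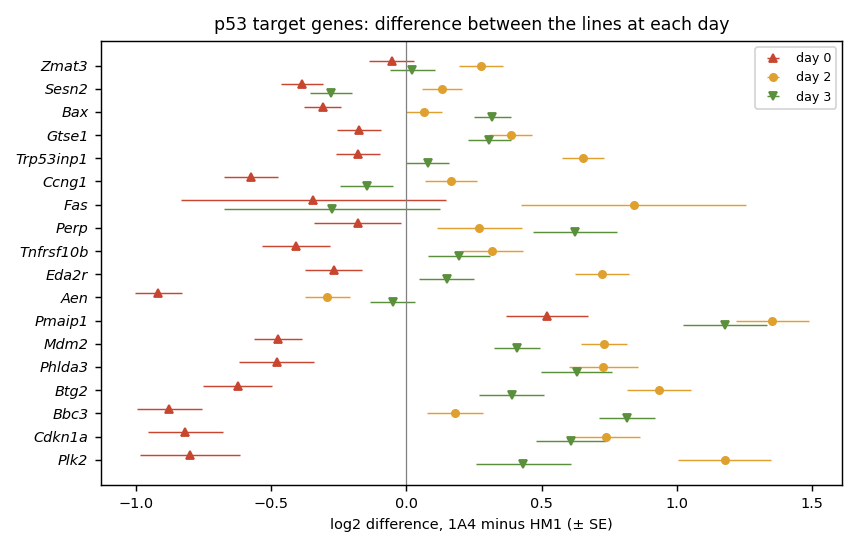
Fitted log2 difference between 1A4 and HM1 (± SE) at day 0 (red), day 2 (orange) and day 3 (green) for the 18 p53 target genes, ordered by the day 0 contrast. At day 0 all but Pmaip1 have a fitted value below 0, and at day 2 all but Aen lie above 0.

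MHC class I and antigen-processing genes were also lowest against HM1 at day 0, but as a list they did not rise above it later. Their median log2 difference was -0.71, -0.39 and -0.08 at days 0, 2 and 3, against -0.032, -0.0059 and -0.00036 over all genes. In the day 0 contrast 6 of the 17 MHC class I and antigen-processing genes were lower and none higher, and in the day 3 contrast 5 were higher. Over all genes 6.68% were lower in the former and 3.68% higher in the latter. The day 3 contrast also holds the low values of day 0. The summed feeder fibroblast markers were also lower in 1A4 at day 0 and overlapped HM1 later, and their part was not tested. Tap1 and Psmb9 were named after their values were seen and do not stand for the list. Tap1, a peptide transporter, stood at 4.24 CPM in 1A4 against 9.47 and 10.8 at day 0, 22.96 against 18.2 and 14.9 at day 2, and 32.7 against 31.9 and 25 at day 3 (-1.59 ± 0.25, adjusted p = 0.0030). Psmb9, an immunoproteasome subunit whose gene overlaps Tap1 on the opposite strand, stood at 1.39 against 4.28 and 3.70 at day 0, at 5.69 against 5.92 and 6.09 at day 2 and at 6.30 against 5.34 and 4.35 at day 3. At day 3 both were above the HM1 replicates. Of the interferon-responsive list 5 were lower and 1 higher in the day 0 contrast. Of the other lists, in which several counts lie near the 3.43% higher and 6.68% lower of all genes, naive pluripotency had 3 members higher, Wnt signalling 1 higher and 5 lower, imprinted genes 3 higher and 5 lower, and FGF and ERK signalling 1 higher and 3 lower in that contrast. In the day 3 contrast imprinted genes had 4 members higher, and retinoic acid, FGF and ERK, and Wnt genes 3 each, beside 3.68% of all genes.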

How the data were processed

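Poly(A)-selected, stranded libraries of 9 biological samples were compared, each sequenced in 4 technical files. The deposited files hold raw counts per Ensembl transcript; per the submitters' processing notes, the tools were bcl2fastq 2.17.1.14, STAR 2.4.0k, SAMtools and HTSeq with build mm10. Neither the annotation release nor whether counting used strand is given in the sources used here. The deposited counts gave a read to each transcript it overlaps, so each gene, named by GENCODE M21, was represented by its most counted transcript (summed over all 72 files); 108309 of 110379 identifiers matched, and the unmatched ones held 1.51 to 1.69% of counts and stayed out. Technical files, which agree within sampling noise (chi-square per degree of freedom 1.01 to 1.03), were summed.

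Genes were kept by edgeR's filterByExpr, scaled by TMM and tested with edgeR 4.0.16 (R 4.3.3; quasi-likelihood, robust, Benjamini-Hochberg, 0.05) with day and line as terms, and in 6 groups of line and day for single days and day-specific contrasts. The fits left 5 and 3 residual degrees of freedom. Alternatives used limma 3.58.1, DESeq2 1.42.0, other scalings, filters and transcript choices, and left-out samples; the procedure was tested on simulated data. Named genes were those given by the labels (Nup133, Sox1, Hprt, Xist and 4 Y-linked genes), the 12 stable genes of largest difference in each direction, the 4 largest day-specific genes per day and direction (at least 1 CPM; no clone, predicted or pseudogene names), and the leading members of each list. The members and lists were chosen with earlier results of these data known. The SE values come from the quasi-likelihood fits and include the estimated spread between samples, while the floors cover counting error only.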

Additional observations from a re-analysis of the deposited data

Results flagged for a closer look

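The differences between 1A4 and HM1 varied with the day in 1586 genes by the joint test. By the contrast of a day with the mean of the other days, 1914, 88 and 952 genes were called for day 0, 2 and 3. Such a contrast can come from the other days as well as from the day itself. The named genes below carry such a contrast at an adjusted p under 0.05 (edgeR), each on the log2 scale and each resting on a single 1A4 sample per day.

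At day 0 the contrast was -4.82 for Nr4a3, -3.58 for Il11, -3.28 for Sdk1, -2.79 for Rtp4 and -1.26 for Hprt. It was 3.79 for Chac1, 3.55 for Sox1, 3.14 for Itgam and 3.10 for Fut1. The Y-linked genes Ddx3y, Uty and Eif2s3y had 1.06, 0.91 and 0.35 at day 0 and -0.80, -0.64 and -0.46 at day 3, so all 3 went the same way. At day 2 the contrast was -2.38 for Sox17, -2.10 for Sox1, -2.07 for Wnt8a and -1.49 for Vsir, and it was 2.05 for Xist, 1.70 for Aqp3, 1.59 for Dusp8 and 1.46 for Klhdc7a. At day 3 it was -4.00 for Nhlh1, -3.37 for Klb, -3.10 for Cd37 and -2.31 for Arhgef38. The higher genes of that day were Slc24a5 (3.85), Krt15 (3.34), Wnt8a (3.25) and Foxc1 (2.69). Sox1 and Wnt8a appear at 2 days with opposite signs.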

How the results depend on the processing

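Counts of calls moved by over 1.5 times as follows. Against a 1.5-fold requirement, the line difference over the days had 60 calls and the stable line difference 56. The day-specific line difference, day 0, had 84, the day-specific line difference, day 2, had 0 and the day-specific line difference, day 3, had 12. The per-day line difference, day 0, had 242, the per-day line difference, day 2, 51 and the per-day line difference, day 3, 58. The 0 is edgeR's count; without the requirement 2185 genes had an unadjusted p under 0.05 there and DESeq2 called 175. With DESeq2 the line difference had 1825 calls and day 3 788. With all transcripts added up, days 2 and 3 had 501 and 615 calls and their contrasts 13 and 329. The day 2 contrast had 160 calls without a filter and 31 with at least 1 CPM in 3 samples. The line difference had 126 calls without day 2 and 736 without day 3. With single samples or HM1 series left out, the line difference had 63 to 1596 calls, the day-specific contrasts 1187 to 1820, 25 to 186 and 173 to 1074, and the single days 2555 to 3243, 319 to 1178 and 366 to 1384.

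The Kdm5d line difference (-0.0030) was 0.041 without day 2, 0.096 without day 3 and -0.23 to 0.26 with samples left out. The Xist line difference (0.84) was -0.026 without day 2 and -0.050 to 1.71 with samples left out, lowest without the 1A4 sample of day 2. The Hoxb1 line difference ran from -0.087 to 1.88 and the Hoxc5 line difference from -0.30 to 1.46, both lowest without the 1A4 sample of day 3. The causes were not tested.

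The labels do not say whether HM1 samples of equal replicate number share a culture. Their deviations from the mean of the day correlated at 0.05, 0.01 and 0.03 between days, which does not settle it. With a random replicate block (limma-voom, consensus correlation -0.21) the line difference over the days had 4056 calls, 1140 of them among the 1142, against 1284 without the block, and the Kdm5d line difference was 0.0069. With a fixed replicate block the day-specific line difference, day 2, had 138 calls. Of 3272 values of single genes under the alternatives, 2685 kept direction and call, 508 lost the call, 66 gained it and 13 turned direction.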

Other observations

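Further genes with large differences, chosen after their values were seen, lay outside the lists. Mid1, a microtubule-associated ubiquitin ligase at the edge of the pseudoautosomal region of the X chromosome, stood at 0.530, 3.12 and 4.27 CPM in 1A4 against 50.9 to 71.1 in the 6 HM1 samples (log2 -4.55 ± 0.37, adjusted p = 0.0013). Polg, the catalytic subunit of the mitochondrial DNA polymerase, was lower by -1.21. Small nucleolar RNA genes gave 16 higher and no lower calls of 234, or 6.84% called, near the 6.03% of all genes, with a median of 0.30 against -0.01 over all genes.

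Several processed pseudogenes were almost without counts in 1A4. Gm6394 had 29801 counts in HM1 and 65 in 1A4. Ftl2-ps, a ferritin light chain pseudogene, had 2598 counts in HM1 and 11 in 1A4, while Ftl1 was higher in 1A4; their summed level at day 0 was 1783 CPM in 1A4 against 752 and 574, so the Ftl1 difference was as large with the pseudogene added. For Atp6v0c, a proton pump subunit, the sum was closer: Atp6v0c was higher by 1.31 and its pseudogene Atp6v0c-ps2 lower by -1.42, and together they stood at 49.0 CPM against 63.2 and 58.7 at day 0, 33.9 against 37.2 and 33.9 at day 2, and 32.1 against 31.2 and 34.1 at day 3. Single levels of such near-identical copies are uncertain.

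In line 319, labelled with extra chromosomes 8 and 12, the level of chromosome 12 relative to all autosomes and to the HM1 mean was 0.44 to 0.55 on the log2 scale, and that of chromosome 8 was -0.45 to -0.28.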
